A study of Mus musculus with 22 samples.

Results

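Claudins, connexins and the other named proteins of tight junctions and desmosomes are the genes described here: 44 of the 18193 genes measured in mouse embryonic stem (ES) cells. They are 20 claudins, 11 connexins, 5 further tight junction genes (Tjp1, Tjp3, Ocln, F11r and Cgn) and 8 desmosome genes (Dsp, Jup, Dsg2, Dsc2 and Pkp1 to Pkp4). The genes were chosen by symbol, with earlier results of these data known. Between them they had 79 probe sets that carry 1 symbol, and each gene was read on its brightest probe set, by the mean of the 22 arrays. The cells were of the Rex1GFPd2 line, whose Rex1 (Zfp42) locus carries a destabilised green fluorescent protein, and the series asks how YAP and TAZ take part in the complex that destroys beta-catenin.

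Every culture was transfected with siRNA and grew in serum-free medium with PD0325901 (PD), which inhibits the kinase MEK. All were harvested at 72 hours. The YAP/TAZ siRNA arm received 1 of 2 siRNA mixes against Yap1 and Wwtr1 (the gene of TAZ), the transcriptional coactivators of the Hippo pathway (8 arrays, 4 per mix). It was moved at 24 hours to medium with PD and no CHIR99021. The 2i control arm received 1 of 2 control siRNAs and was kept in PD with CHIR99021, an inhibitor of GSK3, the kinase that marks beta-catenin for destruction (7 arrays, 4 and 3 per siRNA). The PD-only control arm received the same control siRNAs and was moved at 24 hours to PD alone (7 arrays, 4 and 3 per siRNA). A change of medium is given for PD-only cultures and not for 2i cultures, so that its effect and that of CHIR99021 cannot be told apart. The labels call arrays of a group biological replicates without saying whether they came from separate days or cultures, and p-values then measure the spread between these samples alone.

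Tight junctions seal the space between epithelial cells: claudins form their strands, occludin and JAM-A (F11r) span the membrane beside them, and ZO proteins (Tjp) and cingulin (Cgn) tie them to actin. Gap junctions are channels built of connexins that pass small molecules between neighbouring cells. Desmosomes are spot-like contacts in which the cadherins of the desmoglein and desmocollin families bind plakoglobin (Jup) and plakophilins (Pkp), which bind desmoplakin (Dsp), the anchor of keratin filaments. ES cells grow as compact colonies, and the early embryo builds all 3 kinds of junction when its outer layer becomes an epithelium.

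Values are log2 expression as deposited, in which a difference of 1 is 2-fold. A gene was called where limma's p, adjusted over all 18193 genes by the Benjamini-Hochberg method, was at most 0.05, and the words rose and fell are used only of called genes. Differences are given with the standard error (SE) of the model, always with the YAP/TAZ siRNA arm, or otherwise the 2i control, minus the arm it is set against. The number of arrays limits the precision, and dim probe sets, here those under the median of all genes (6.64) in every arm, show less than the true change. The targeted genes were lower where targeted: Yap1 was at 9.67 to 9.91 with YAP/TAZ siRNA, against 10.81 to 10.95 in the 2i control and 11 to 11.07 in the PD-only control. Wwtr1 was at 9.18 to 9.41 with YAP/TAZ siRNA, against 9.99 to 10.07 in the 2i control and 10.25 to 10.34 in the PD-only control. No array stood apart from its arm, with correlations between arrays of an arm of 0.9977 or more. One measure of RNA integrity, the 3′ minus 5′ signal of Actb, did move with the arms. It was 0.88 to 1.07 with YAP/TAZ siRNA, 0.87 to 1.19 in the 2i control and 0.66 to 0.75 in the PD-only control. The PD-only control overlapped neither other arm, so that this measure, as a covariate, cannot be fully separated from the arms. The same signal of Gapdh was -0.07 to 0.05, -0.04 to 0.04 and -0.09 to -0.06 in that order. The mean of the poly-A spike controls was 8.268 to 8.627, 8.82 to 9.248 and 8.168 to 8.675, with the 2i control apart.

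With YAP/TAZ siRNA, the desmosome genes Dsc2, Dsp and Pkp2, the claudins Cldn7 and Cldn6, the connexins Gja1 and Gjb2 and the tight junction plaque gene Cgn were at least 2-fold below the PD-only control. Gjc1 and Cldn5 were at least 2-fold above it. Set against that control, 22 of the 44 genes fell, 7 rose and 15 were not called, while 26.3% of all genes fell and 35.5% rose (61.8% called in all). At least 2-fold, 8 fell and 2 rose, or 22.7% of the family, beside 4.47% and 1.9% of all genes (6.37% together). The median difference was -0.19 for the 44 genes and 0.06 for all genes. Of the 44, 23 (52.3%) had values that did not overlap between these arms, beside 40.4% of all genes. With the Actb measure as a covariate, 21 fell and 3 rose. The share of all genes called in that fit is not given here, so these counts do not single out the junction genes. Of the 7 genes that rose, only Cldn5 and Gjc1 were still called higher with it, and the other 5 were not called. The third gene that rose with the covariate was Gja3 (0.34, adjusted p = 0.0418), which was not called without it (-0.05).

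The 2i control had Dsc2, Dsp, Pkp2, Cldn7, Cldn6, Gja1, Gjb2, Gjb5 and Cgn at least 2-fold below the PD-only control, and Gjc1 at least 2-fold above it. Set against the same PD-only control arrays, 19 of the 44 genes fell, 7 rose and 18 were not called, against 26.7% and 31.3% of all genes (58% called in all). At least 2-fold, 9 fell and 1 rose, which is again 22.7% of the family, beside 4.12% and 1.69% of all genes (5.81% together). The median difference was -0.05 for the 44 genes and 0.04 for all genes. Since both comparisons subtract the same 7 PD-only control arrays, their differences are given side by side without a test of their likeness.

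Set directly against each other, the YAP/TAZ siRNA arm and the 2i control gave fewer calls: 9 junction genes rose, 9 fell and 26 were not called. This stands beside 25.5% of all genes that rose and 22.8% that fell (48.3% in all). Only Dsp was at least 2-fold higher with YAP/TAZ siRNA, and Gja1, Ocln and Dsg2 were at least 2-fold lower, beside 0.632% and 0.879% of all genes (1.51% together). Among the 44 genes, these 4 are where the YAP/TAZ siRNA arm and the 2i control were farthest apart.

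**Figure D1:**
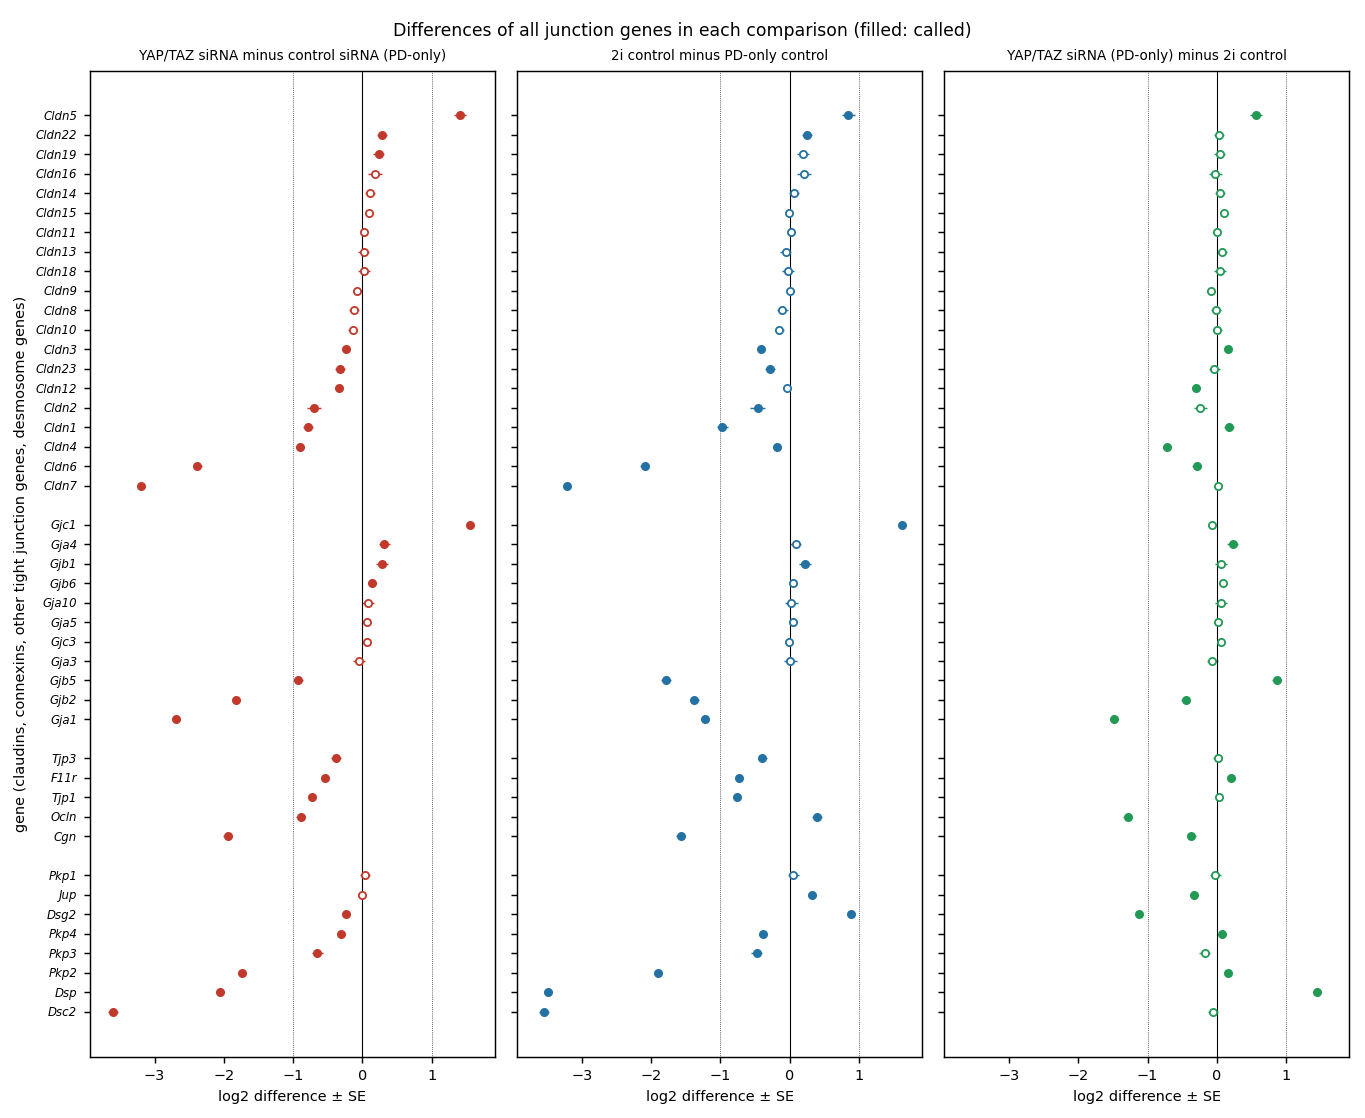
Log2 difference with its SE (horizontal axis) of each of the 44 junction genes (vertical axis, in blocks of claudins, connexins, other tight junction genes and desmosome genes), in 3 panels for the YAP/TAZ siRNA arm against the PD-only control, the 2i control against the PD-only control, and the YAP/TAZ siRNA arm against the 2i control. Filled points are called and dotted lines mark 2-fold; Dsc2 (-3.60), Cldn7 (-3.20) and Gja1 (-2.70) lie far left in the first panel, while the third panel spans -1.48 (Gja1) to 1.45 (Dsp).

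Among the claudins, 8 of 20 fell and 3 rose with YAP/TAZ siRNA, and 7 fell and 2 rose in the 2i control, both against the PD-only control. The shares called, 55% and 45%, were under the 61.8% and 58% of all genes. Cldn7 is a claudin of the lateral membrane of epithelial cells and binds the adhesion molecule Epcam. It read 5.49 to 5.77 (median 5.62) on the YAP/TAZ siRNA arrays, 5.50 to 5.67 (median 5.61) on the 2i control arrays and 8.69 to 8.86 (median 8.83) on the PD-only control arrays. Both arms were low, overlapped each other, and lay far below every PD-only control array. The difference was -3.20 ± 0.043 with YAP/TAZ siRNA (9.19-fold lower, limma adjusted p = 1.53e-22) and -3.22 ± 0.044 in the 2i control (9.3-fold lower, adjusted p = 2.72e-22). Set against each other, the arms differed by 0.017 ± 0.043 (adjusted p = 0.795), a value within 1 SE of 0. Both of these arms lay under 6.64, at a level where probe sets are dim and can hide a difference.

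Cldn6, a claudin of embryonic epithelia, gave 6.09 to 6.62 (median 6.45) with YAP/TAZ siRNA, 6.53 to 6.87 (median 6.73) in the 2i control and 8.68 to 8.86 (median 8.81) in the PD-only control. It changed by -2.38 ± 0.061 with YAP/TAZ siRNA (adjusted p = 5.49e-18) and by -2.09 ± 0.064 in the 2i control (adjusted p = 1.04e-16). The highest array of either arm was well under the lowest PD-only control array. It was a little lower with YAP/TAZ siRNA than in the 2i control (-0.29 ± 0.061, adjusted p = 0.000439), where the arrays of the arms overlapped.

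Cldn5, the claudin that seals the endothelium of brain vessels, was the claudin that went the other way at least 2-fold. Its values were 7.01 to 7.27 (median 7.13) with YAP/TAZ siRNA, 6.37 to 6.76 (median 6.57) in the 2i control and 5.36 to 6.04 (median 5.67) in the PD-only control. The arms formed 3 steps with no overlap, highest with YAP/TAZ siRNA. It rose by 1.41 ± 0.088 with YAP/TAZ siRNA (adjusted p = 1.34e-11), by 0.85 ± 0.092 in the 2i control (adjusted p = 7.72e-08), and by 0.56 ± 0.088 with YAP/TAZ siRNA over the 2i control (adjusted p = 1.69e-05). Of the endothelial markers, Cdh5, which defines that lineage, averaged 3.64 with YAP/TAZ siRNA, 3.55 in the 2i control and 3.52 in the PD-only control and was not called. Of 5 other markers, Tek and Kdr fell in both comparisons, Tie1 and Erg were called in neither, and Emcn, with an arm mean of at most 3.27, rose with YAP/TAZ siRNA (0.19 ± 0.069).

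Changes between 0.5 and 1 were seen in Cldn4, Cldn1 and Cldn2. Cldn4 is a barrier claudin and a receptor of Clostridium perfringens enterotoxin. It was at 9.0 to 9.23 (median 9.17) with YAP/TAZ siRNA, 9.62 to 9.96 (median 9.92) in the 2i control and 9.98 to 10.11 (median 10.04) in the PD-only control. Its YAP/TAZ siRNA arrays stood alone at the low end. It changed by -0.90 ± 0.045 with YAP/TAZ siRNA (adjusted p = 4.48e-13), by -0.18 ± 0.047 in the 2i control (adjusted p = 0.00271) and by -0.72 ± 0.045 with YAP/TAZ siRNA against the 2i control (adjusted p = 4.39e-11). The fall in the 2i control was not called with the siRNAs numbered 1 alone (-0.14, adjusted p = 0.0767).

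Cldn1, a claudin needed for the water barrier of the epidermis, and Cldn2, which forms a pore for cations and water, were dim in every arm, and both fell. Cldn1 differed by -0.79 ± 0.073 with YAP/TAZ siRNA (adjusted p = 6.24e-09) and by -0.97 ± 0.075 in the 2i control (adjusted p = 5.15e-10). Cldn2 differed by -0.70 ± 0.10 with YAP/TAZ siRNA (adjusted p = 3.15e-06) and by -0.46 ± 0.10 in the 2i control (adjusted p = 0.000607). The difference in the 2i control was not called with the Actb measure as a covariate (-0.38, adjusted p = 0.132). Another probe set of each, Cldn1 at 3.73 and Cldn2 at 4.46 on average, was not called in either.

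The other 14 claudins changed by less than 0.5 in each comparison, on the probe set used. Cldn12, which lacks the PDZ-binding end of most claudins, fell with YAP/TAZ siRNA alone (-0.34 ± 0.027, adjusted p = 5.49e-10, beside -0.043 ± 0.028, adjusted p = 0.196, in the 2i control). The direct comparison of those arms was called too (-0.30 ± 0.027, adjusted p = 8.31e-09). Cldn3, a barrier claudin like Cldn4, and Cldn23 fell in both comparisons, with differences of -0.24 ± 0.041 with YAP/TAZ siRNA and -0.41 ± 0.043 in the 2i control for Cldn3. Those of Cldn23 were -0.32 ± 0.073 with YAP/TAZ siRNA and -0.29 ± 0.076 in the 2i control. Cldn22 rose by 0.29 ± 0.073 with YAP/TAZ siRNA and 0.25 ± 0.076 in the 2i control, and Cldn19, a claudin of kidney and peripheral nerve, rose by 0.24 ± 0.079 with YAP/TAZ siRNA. With the Actb measure as a covariate these rises with YAP/TAZ siRNA were not called, though the differences stayed near the same size. They were 0.32 for Cldn22 (adjusted p = 0.0777) and 0.22 for Cldn19 (adjusted p = 0.271). The rise of Cldn22 in the 2i control was not called with the covariate either (0.28, adjusted p = 0.126). Cldn19 was not called with the siRNAs numbered 1 alone (adjusted p = 0.138) or numbered 2 alone (adjusted p = 0.0551). Cldn8 to Cldn11, Cldn13 to Cldn16 and Cldn18, most of them known from other organs such as kidney, gut, inner ear, myelin, lung and stomach, were not called in any of the 3 comparisons.

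**Figure D2:**
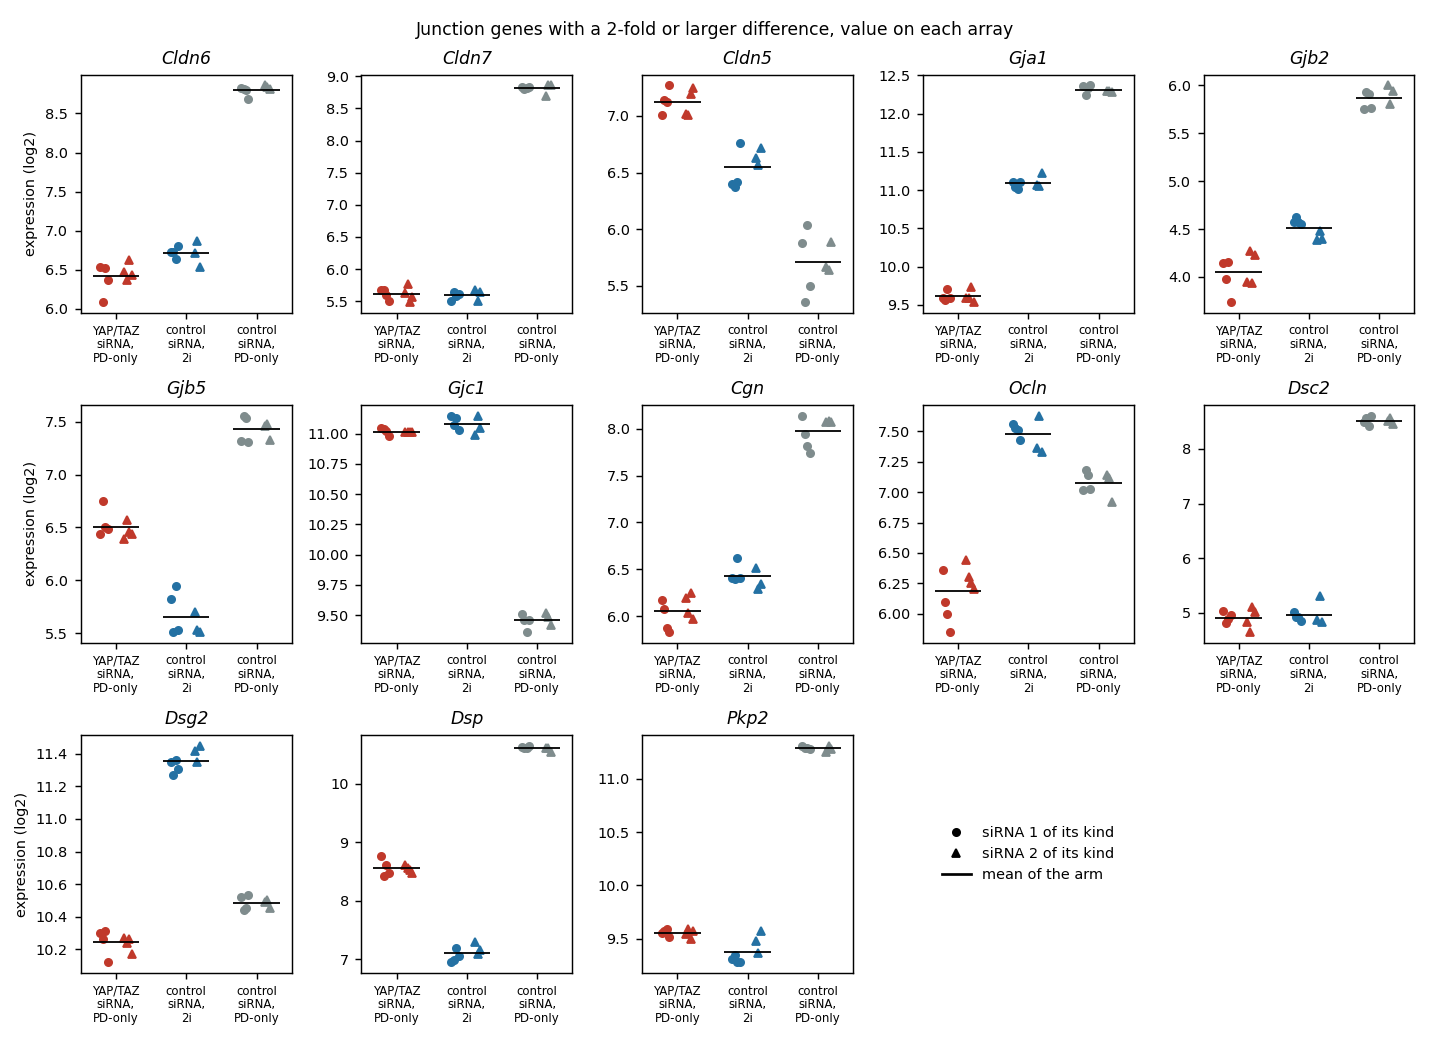
Log2 expression (vertical axis, scaled to each gene) on each array for the 13 junction genes with a called difference of at least 2-fold, with the YAP/TAZ siRNA arm, the 2i control and the PD-only control from left to right. Circles and triangles are the siRNAs numbered 1 and 2 and bars are arm means; Cldn7 and Dsc2 show 2 low arms and a high PD-only control, Gjc1 the inverse, and Gja1 3 separate steps.

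Promoters were searched because the DNA partners of YAP/TAZ (TEAD factors) and of beta-catenin (TCF/LEF factors) bind short known motifs, as do AP-1 and grainyhead-like factors. For the 13 genes with a 2-fold difference, 11 windows of 9 genes were listed. The 5 that hold one of the motifs are printed, those of Cldn6 and Cldn7 here and those of 3 connexins further on. The other 6 (Cgn, Cldn5, Dsp, both of Ocln and the second of Cldn7) hold none of them. The 300-base windows were taken from RefSeq (GRCm38.p6), Cldn6 from chr17:23679115-23679414 and the first of the 2 listed for Cldn7 from chr11:69964529-69964828, both on the plus strand. Capitals mark GGAATG, the TEAD motif, or its reverse complement.
Cldn6: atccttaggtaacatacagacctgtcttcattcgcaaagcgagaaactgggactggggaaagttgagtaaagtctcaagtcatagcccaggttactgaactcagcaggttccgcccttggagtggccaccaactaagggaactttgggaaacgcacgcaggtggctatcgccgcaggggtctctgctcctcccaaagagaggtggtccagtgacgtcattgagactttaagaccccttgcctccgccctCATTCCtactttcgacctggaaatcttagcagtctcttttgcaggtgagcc
Cldn7: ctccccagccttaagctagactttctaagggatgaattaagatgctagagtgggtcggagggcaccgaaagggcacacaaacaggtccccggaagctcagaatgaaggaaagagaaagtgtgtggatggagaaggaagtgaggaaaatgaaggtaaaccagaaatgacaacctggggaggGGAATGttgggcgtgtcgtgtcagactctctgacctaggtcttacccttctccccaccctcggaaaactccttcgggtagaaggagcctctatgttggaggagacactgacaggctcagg
The Cldn6 match ran on the minus strand from base -1 to base 5, counted from the annotated start with negative numbers upstream, and the Cldn7 match on the plus strand from -70 to -65. GGAATG was found on either strand in 8 of the 49 promoters listed for 34 of the 44 genes (16.3%). It was found in 14.7% of all 32851 promoters of the table, a share close to that of the family.

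Of 11 connexins, 3 fell and 4 rose with YAP/TAZ siRNA, and 3 fell and 2 rose in the 2i control. The shares called were 63.6% and 45.5%, beside 61.8% and 58% of all genes. The connexins that changed at least 2-fold, namely Gja1, Gjb2, Gjb5 and Gjc1, differed in how the 3 arms were ordered. Gja1 codes for the main connexin of ES cells and of heart muscle. It read 9.54 to 9.73 (median 9.59) with YAP/TAZ siRNA, 11.01 to 11.23 (median 11.07) in the 2i control and 12.25 to 12.37 (median 12.30) in the PD-only control. The arms made 3 steps without overlap, lowest with YAP/TAZ siRNA. It changed by -2.70 ± 0.035 with YAP/TAZ siRNA (6.48-fold lower, adjusted p = 8.77e-23) and by -1.22 ± 0.036 in the 2i control (2.33-fold lower, adjusted p = 6.52e-17). Between the YAP/TAZ siRNA arm and the 2i control the difference was -1.48 ± 0.035 (2.79-fold lower, adjusted p = 1.03e-17), the largest difference of the 44 genes in that comparison.

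Gjb2, a connexin of the inner ear, liver and skin, was dim, at 3.74 to 4.27 (median 4.06) with YAP/TAZ siRNA, 4.39 to 4.63 (median 4.55) in the 2i control and 5.75 to 6.0 (median 5.91) in the PD-only control. It had the same order of arms as Gja1, again with no overlap. The differences were -1.83 ± 0.063 with YAP/TAZ siRNA (adjusted p = 7.10e-16), -1.38 ± 0.065 in the 2i control (adjusted p = 1.77e-13) and -0.45 ± 0.063 between those arms (adjusted p = 4.04e-06).

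Gjb5, a connexin of mouse placenta and skin, had 6.39 to 6.75 (median 6.48) with YAP/TAZ siRNA, 5.51 to 5.95 (median 5.53) in the 2i control and 7.31 to 7.56 (median 7.46) in the PD-only control. Here the 2i control was the lowest arm and the YAP/TAZ siRNA arm lay between. Gjb5 changed by -0.92 ± 0.068 with YAP/TAZ siRNA (adjusted p = 1.96e-10) and by -1.79 ± 0.071 in the 2i control (adjusted p = 8.00e-15). It was 0.86 ± 0.068 higher with YAP/TAZ siRNA than in the 2i control (adjusted p = 1.13e-09).

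Gjc1, a connexin of the cardiac conduction system and of early embryonic vessels, rose. It read 10.98 to 11.05 (median 11.01) with YAP/TAZ siRNA, 10.99 to 11.15 (median 11.07) in the 2i control and 9.36 to 9.52 (median 9.46) in the PD-only control. Both of the first arms were high together and apart from the PD-only control. The rise was 1.56 ± 0.029 with YAP/TAZ siRNA (2.94-fold, adjusted p = 3.42e-20) and 1.62 ± 0.03 in the 2i control (3.07-fold, adjusted p = 3.47e-20). Those arms differed by -0.063 ± 0.029 (adjusted p = 0.0867). That small difference was called with dim genes left out (adjusted p = 0.0434), after quantile normalization (adjusted p = 0.0207) and with a trended prior (adjusted p = 0.0392).

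The remaining 7 connexins were dim and changed by less than 0.5. Gja4, a connexin of vessels and oocytes, Gjb1, the main connexin of liver, and Gjb6, a partner of Gjb2 in the inner ear, rose by 0.32 ± 0.075, 0.29 ± 0.083 and 0.14 ± 0.048 with YAP/TAZ siRNA. Each of them overlapped the PD-only control. With the Actb measure as a covariate none of these 3 was called: the difference with YAP/TAZ siRNA was 0.29 for Gja4 (adjusted p = 0.131), -0.015 for Gjb1 (adjusted p = 0.945) and 0.22 for Gjb6 (adjusted p = 0.0568). Gjb6 was not called with the siRNAs numbered 1 alone (adjusted p = 0.0851) or numbered 2 alone (adjusted p = 0.094), and Gjb1 not with those numbered 1 (adjusted p = 0.0948). Of these, Gjb1 also rose in the 2i control, by 0.23 ± 0.086 (adjusted p = 0.0291). That rise was not called with the covariate either (-0.068, adjusted p = 0.75). Gja3 and Gja10, connexins of lens and retina, Gja5, of atrial muscle, and Gjc3, of myelin, were not called in any of the 3 comparisons on the probe set used. With the Actb covariate Gja3 was called higher, by 0.34 with YAP/TAZ siRNA (adjusted p = 0.0418) and by 0.39 in the 2i control (adjusted p = 0.0195).

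The printed promoters of connexins, chosen like those above because they hold a motif, are again from RefSeq (GRCm38.p6): Gja1 at chr10:56377050-56377349 on the plus strand, Gjb2 at chr14:57104653-57104952 and Gjb5 at chr4:127358115-127358414, both on the minus strand. Capitals mark TGANTCA, the motif of AP-1 factors, in Gja1, and CTTTGA, the TCF/LEF motif, or its reverse complement in Gjb2 and Gjb5.
Gja1: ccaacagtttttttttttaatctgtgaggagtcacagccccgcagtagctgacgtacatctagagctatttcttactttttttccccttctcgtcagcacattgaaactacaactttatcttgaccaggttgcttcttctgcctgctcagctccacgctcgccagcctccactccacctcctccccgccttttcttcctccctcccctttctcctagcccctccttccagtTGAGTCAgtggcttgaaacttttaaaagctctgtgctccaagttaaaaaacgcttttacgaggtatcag
Gjb2: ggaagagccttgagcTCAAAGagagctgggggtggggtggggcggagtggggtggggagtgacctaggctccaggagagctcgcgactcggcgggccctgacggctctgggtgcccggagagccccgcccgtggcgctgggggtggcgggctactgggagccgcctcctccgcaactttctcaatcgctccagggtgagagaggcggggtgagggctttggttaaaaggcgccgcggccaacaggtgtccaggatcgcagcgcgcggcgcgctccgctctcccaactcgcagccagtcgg
Gjb5: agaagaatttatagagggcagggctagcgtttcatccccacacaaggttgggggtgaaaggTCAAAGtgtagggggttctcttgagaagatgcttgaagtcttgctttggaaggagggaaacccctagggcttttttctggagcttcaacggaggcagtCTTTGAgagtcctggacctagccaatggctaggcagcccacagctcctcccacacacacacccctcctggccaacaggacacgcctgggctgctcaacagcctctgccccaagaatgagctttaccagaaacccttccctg
The Gja1 match lay at -19 to -13, that of Gjb2 at -235 to -230 on the minus strand, and those of Gjb5 at -189 to -184 on the minus strand and at -91 to -86 on the plus strand, relative to the gene's own direction. TGANTCA was found in 4 of the family's 49 promoters (8.16%) and in 7.81% of all promoters. CTTTGA was found in 7 of them (14.3%) and in 16.0% of all, and AACCGGTT, bound by grainyhead-like factors, in 0 of them and in 0.146% of all. No motif overlapped another in the windows printed, and a match describes the letters alone.

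All 5 of the other tight junction genes fell with YAP/TAZ siRNA, and in the 2i control 4 fell and Ocln rose. Of all genes, 26.3% fell with YAP/TAZ siRNA and 26.7% in the 2i control. Cgn, the plaque protein cingulin, was at 5.83 to 6.25 (median 6.06) with YAP/TAZ siRNA, 6.29 to 6.62 (median 6.41) in the 2i control and 7.74 to 8.14 (median 8.07) in the PD-only control. Its arms formed 3 separate steps, with the PD-only control far above the others. It changed by -1.94 ± 0.066 with YAP/TAZ siRNA (adjusted p = 4.83e-16), by -1.57 ± 0.068 in the 2i control (adjusted p = 3.62e-14) and by -0.37 ± 0.066 between those arms (adjusted p = 6.80e-05). A dimmer probe set of Cgn (mean 5.15) changed far less. It gave -0.18 with YAP/TAZ siRNA, -0.18 in the 2i control and 0.006 between those arms (adjusted p = 0.958).

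Ocln, which codes for occludin, moved in opposite directions. Its values were 5.85 to 6.44 (median 6.23) with YAP/TAZ siRNA, 7.33 to 7.63 (median 7.51) in the 2i control and 6.92 to 7.18 (median 7.12) in the PD-only control. The PD-only control lay between the arms and overlapped neither. Ocln changed by -0.89 ± 0.065 with YAP/TAZ siRNA (adjusted p = 1.89e-10) and rose by 0.40 ± 0.068 in the 2i control (adjusted p = 3.57e-05). The YAP/TAZ siRNA arm was 2.44-fold below the 2i control (-1.29 ± 0.065, adjusted p = 1.36e-12). A second probe set of Ocln (mean 6.30) gave -0.43 with YAP/TAZ siRNA and 0.42 in the 2i control. Between those arms it gave -0.85, which is under 2-fold.

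Tjp1 is the scaffold protein ZO-1, which binds claudin tails and actin. It read 10.55 to 10.69 (median 10.62) with YAP/TAZ siRNA, 10.57 to 10.62 (median 10.60) in the 2i control and 11.31 to 11.40 (median 11.36) in the PD-only control. It changed by -0.73 ± 0.026 with YAP/TAZ siRNA (adjusted p = 1.61e-15) and by -0.76 ± 0.028 in the 2i control (adjusted p = 2.00e-15). Those arms overlapped each other (0.026 ± 0.026, adjusted p = 0.464). F11r, the adhesion molecule JAM-A, gave 9.19 to 9.32 (median 9.30) with YAP/TAZ siRNA, 9.01 to 9.14 (median 9.09) in the 2i control and 9.76 to 9.86 (median 9.80) in the PD-only control, with no overlap. It changed by -0.53 ± 0.024 with YAP/TAZ siRNA and by -0.73 ± 0.025 in the 2i control, and was slightly higher with YAP/TAZ siRNA than in the 2i control (0.20 ± 0.024, adjusted p = 6.53e-07). Tjp3, the scaffold ZO-3, changed by -0.38 ± 0.066 with YAP/TAZ siRNA and by -0.39 ± 0.069 in the 2i control.

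Desmosome genes fell in 6 of 8 cases with YAP/TAZ siRNA and in 5 of 8 in the 2i control, where Dsg2 and Jup rose. The shares called were 75% and 87.5%, beside 61.8% and 58% of all genes. Dsc2, a desmosomal cadherin, had the largest fall with YAP/TAZ siRNA of the 44 genes. Its values were 4.65 to 5.11 (median 4.92) with YAP/TAZ siRNA and 4.84 to 5.31 (median 4.92) in the 2i control, against 8.41 to 8.61 (median 8.51) in the PD-only control. The low arms overlapped each other and were at a level where probe sets are dim. The difference was -3.60 ± 0.07 with YAP/TAZ siRNA (12.1-fold lower, adjusted p = 6.18e-20), -3.55 ± 0.073 in the 2i control (11.7-fold lower, adjusted p = 1.56e-19) and -0.055 ± 0.07 between them (adjusted p = 0.576).

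Dsg2, the desmoglein that the early mouse embryo requires, behaved otherwise. It read 10.12 to 10.31 (median 10.26) with YAP/TAZ siRNA, 11.27 to 11.45 (median 11.35) in the 2i control and 10.44 to 10.53 (median 10.49) in the PD-only control. The 2i control was the highest arm, and the YAP/TAZ siRNA arrays lay just under those of the PD-only control. Dsg2 changed by -0.24 ± 0.031 with YAP/TAZ siRNA (adjusted p = 7.11e-07) and rose by 0.88 ± 0.032 in the 2i control (adjusted p = 1.72e-15). It was 2.18-fold lower with YAP/TAZ siRNA than in the 2i control (-1.12 ± 0.031, adjusted p = 8.73e-17). Jup, or plakoglobin, is a close relative of beta-catenin. It read 7.28 to 7.48 (median 7.33) with YAP/TAZ siRNA, 7.57 to 7.77 (median 7.68) in the 2i control and 7.27 to 7.51 (median 7.34) in the PD-only control, with the 2i control apart and above. It rose in the 2i control (0.32 ± 0.041, adjusted p = 9.04e-07), was not called with YAP/TAZ siRNA (-0.0088 ± 0.04, adjusted p = 0.859), and was lower with YAP/TAZ siRNA than in the 2i control (-0.33 ± 0.04, adjusted p = 5.35e-07).

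Dsp, which codes for the keratin anchor desmoplakin, was at 8.43 to 8.77 (median 8.55) with YAP/TAZ siRNA, 6.95 to 7.29 (median 7.09) in the 2i control and 10.54 to 10.65 (median 10.62) in the PD-only control. The order of the arms was that of Gjb5, with the 2i control lowest and no overlap. It changed by -2.05 ± 0.047 with YAP/TAZ siRNA (4.14-fold lower, adjusted p = 9.07e-19) and by -3.50 ± 0.049 in the 2i control (11.3-fold lower, adjusted p = 3.33e-22). The YAP/TAZ siRNA arm was 2.72-fold above the 2i control (1.45 ± 0.047, adjusted p = 1.46e-15). The keratins of simple epithelia, whose filaments desmoplakin holds, were lower in the same arms. All 5 measured fell in both, beside 26.3% of all genes with YAP/TAZ siRNA and 26.7% in the 2i control. A link between these falls and that of Dsp was not tested. Krt8 differed by -5.80 with YAP/TAZ siRNA and by -6.67 in the 2i control. Krt18 differed by -5.65 with YAP/TAZ siRNA and by -6.04 in the 2i control. Krt8 was also higher with YAP/TAZ siRNA than in the 2i control, by 0.87 (adjusted p = 8.9e-15).

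Pkp2, a plakophilin of heart and simple epithelia, read 9.50 to 9.59 (median 9.56) with YAP/TAZ siRNA, 9.28 to 9.57 (median 9.35) in the 2i control and 11.25 to 11.31 (median 11.29) in the PD-only control. It changed by -1.73 ± 0.027 with YAP/TAZ siRNA (adjusted p = 1.66e-21) and by -1.90 ± 0.028 in the 2i control (adjusted p = 7.51e-22), and the PD-only control lay apart from both arms. The small excess with YAP/TAZ siRNA over the 2i control (0.16 ± 0.027, adjusted p = 2.94e-05) was not called with the siRNAs numbered 2 alone (0.08, adjusted p = 0.145) or with the mean of all probe sets (0.12, adjusted p = 0.0843). Pkp3, a plakophilin found in most desmosomes, changed by -0.65 ± 0.08 with YAP/TAZ siRNA and -0.47 ± 0.083 in the 2i control. Pkp4, which also sits at adherens junctions, changed by -0.31 ± 0.021 with YAP/TAZ siRNA and -0.38 ± 0.022 in the 2i control. Pkp1, the plakophilin of stratified epithelia, was dim and was not called in any of the 3 comparisons.

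The siRNAs of each kind gave like values. Between the YAP/TAZ mixes limma called 0 of the 18193 genes, where 649 had an unadjusted p under 0.05. Among the 44 genes 1 had such a p, Ocln, with a difference of -0.22 for mix 1 minus mix 2 (unadjusted p = 0.0228, adjusted p = 1). The difference between 2i and PD-only was likewise not called to differ between the control siRNAs for any of the 18193 genes (949 at an unadjusted p under 0.05). Of the 44 genes that was so for Pkp2, with -0.18 (unadjusted p = 0.00446, adjusted p = 0.928). With siRNAs numbered 1 and with those numbered 2, the difference of Gja1 with YAP/TAZ siRNA was -2.72 and -2.68, that of Dsc2 -3.60 and -3.60, and that of Dsp -2.06 and -2.04.

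**Figure D3:**
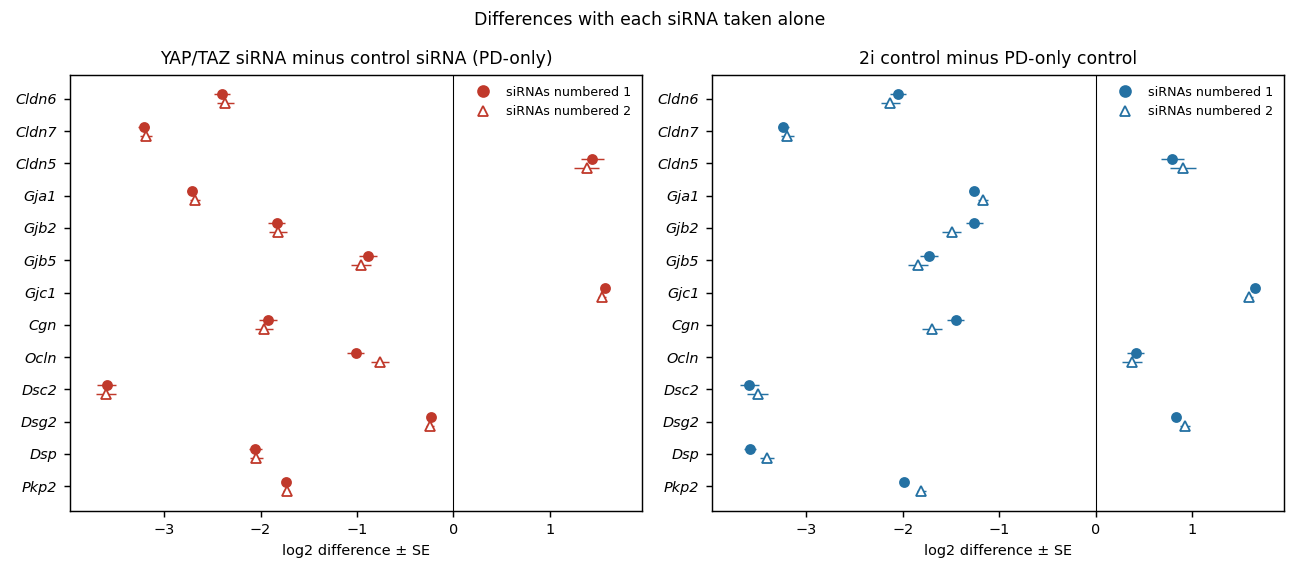
Log2 difference with its SE (horizontal axis) of the 13 genes with a 2-fold difference (vertical axis), computed with the siRNAs numbered 1 alone (circles) and numbered 2 alone (triangles), for the YAP/TAZ siRNA arm (left) and the 2i control (right), each against the PD-only control. In the left panel the pair of points of each gene lies close together, the widest gap being that of Ocln (-1.02 and -0.76).

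Several genes had further probe sets. All 6 probe sets of Gja1 fell in both comparisons, with differences of -2.70 to -1.13 with YAP/TAZ siRNA and -1.22 to -0.50 in the 2i control. Its brightest probe set is of the type marked as open to cross-hybridisation (suffix _x_at), and a probe set without that mark gave -2.64 with YAP/TAZ siRNA and -1.20 in the 2i control. All 6 of Dsg2 rose in the 2i control, by 0.58 to 0.88, and 4 of them fell with YAP/TAZ siRNA while 2 were not called. Both of Gjc1 rose, all 4 of Pkp2 and both of Dsc2 fell in both comparisons, and of 3 for Dsp a dim one (mean 3.53) was not called. Of the 20 genes with several probe sets, the calls of the probe sets differed for 9 with YAP/TAZ siRNA (Cldn1, Cldn2, Cldn9, Dsg2, Dsp, F11r, Gja3, Gjb1 and Pkp3) and for 8 in the 2i control (the same without Dsg2 and Gja3, and with Cldn18). None had probe sets called in opposite directions, but probe sets with like calls could differ in size, as for Cgn and Ocln. For Cldn9, named after its values were seen, a dimmer probe set gave at least a 2-fold fall where the brighter gave none. The brighter (mean 5.27) was not called. The dimmer (mean 4.10) averaged 3.87 with YAP/TAZ siRNA, 3.45 in the 2i control and 5.0 in the PD-only control. It fell (-1.14 with YAP/TAZ siRNA, adjusted p = 9.61e-09, and -1.57 in the 2i control, adjusted p = 1.19e-10).

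**Figure D4:**
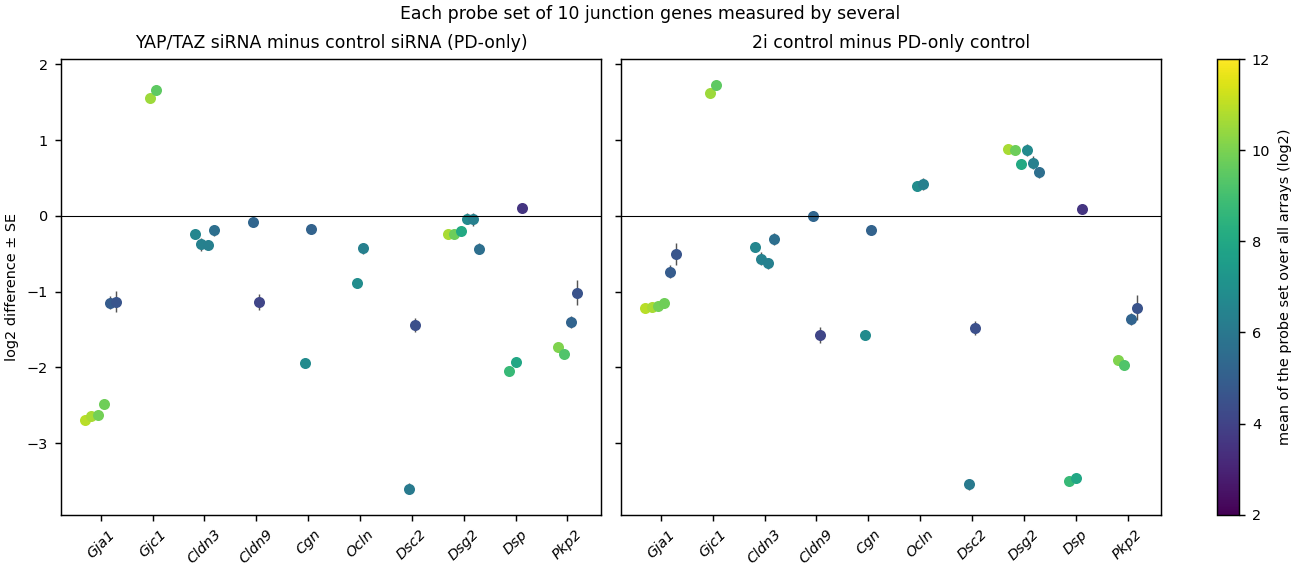
Log2 difference with its SE (vertical axis) of each probe set of 10 junction genes that have several (horizontal axis), coloured by the probe set's mean over all arrays, for the YAP/TAZ siRNA arm (left) and the 2i control (right), each against the PD-only control. The 6 probe sets of Gja1 all lie under 0 in both panels, those of Dsg2 above 0 in the right panel, and those of Cldn9 lie apart.

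Junction genes outside the family were read from lists of known parts. Of 28 measured genes of the wider tight junction and polarity machinery, 17 fell and 8 rose with YAP/TAZ siRNA, 15 fell and 8 rose in the 2i control, and 18 fell and 7 rose with YAP/TAZ siRNA against the 2i control. Of all genes, 26.3% fell and 35.5% rose with YAP/TAZ siRNA, and 26.7% fell and 31.3% rose in the 2i control. With YAP/TAZ siRNA against the 2i control, 22.8% of all genes fell and 25.5% rose. These shares also stand beside the counts of the lists that follow. Patj, a scaffold with many PDZ domains, fell (-2.10 with YAP/TAZ siRNA and -0.99 in the 2i control). So did its relative Mpdz (-1.995 with YAP/TAZ siRNA and -1.46 in the 2i control). Of the polarity genes, Pard6b differed by -1.96 with YAP/TAZ siRNA and -1.89 in the 2i control, and Crb3 by -1.75 with YAP/TAZ siRNA and -0.55 in the 2i control. Marveld2, the protein of tricellular contacts, fell (-1.43 with YAP/TAZ siRNA and -1.04 in the 2i control), whereas Ildr1, of the same contacts, rose by 1.16 with YAP/TAZ siRNA and 1.55 in the 2i control. Standard errors of the genes in these lists were 0.023 to 0.12. Jam3, an adhesion molecule related to F11r, had the directions of Ocln: it fell by 0.54 with YAP/TAZ siRNA and rose by 0.72 in the 2i control. Esam, an endothelial relative, rose by 0.91 with YAP/TAZ siRNA and was not called in the 2i control (-0.0092, adjusted p = 0.897).

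Of 6 other gap junction genes, 3 rose and 1 fell in each comparison with the PD-only control. The one that fell was Panx1, the pannexin of large non-junctional channels, with differences of -0.77 with YAP/TAZ siRNA and -0.46 in the 2i control. Those that rose, Panx2, Panx3 and Gjd4, were dim and changed by 0.11 to 0.26. Of 7 other desmosome genes, 2 fell in both comparisons. They were Perp, a desmosome protein and p53 target (-2.24 with YAP/TAZ siRNA and -1.95 in the 2i control), and Ppl, periplakin (-0.58 with YAP/TAZ siRNA and -0.40 in the 2i control). Dsc1, Dsc3, Dsg1a and Evpl were not called, and Dsg1b, at 2.54 with YAP/TAZ siRNA, rose there by 0.12.

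Regulators of epithelial genes moved in part. Of 22 measured, 15 fell and 5 rose with YAP/TAZ siRNA, 10 fell and 7 rose in the 2i control, and 10 fell and 5 rose with YAP/TAZ siRNA against the 2i control. Esrp1, a splicing factor of epithelia, fell (-3.04 with YAP/TAZ siRNA and -4.03 in the 2i control), and was 0.99 higher with YAP/TAZ siRNA than in the 2i control, an order of arms like that of Dsp. Epcam, the binding partner of Cldn7, fell (-1.82 with YAP/TAZ siRNA and -1.33 in the 2i control). Spint2, a protease inhibitor, Klf4 and Grhl2, a grainyhead-like factor, were lower with YAP/TAZ siRNA than in the 2i control. The differences were -0.89, -0.95 and -0.89. In the 2i control against the PD-only control, Grhl2 differed by 0.028 (adjusted p = 0.608). The 5 that rose with YAP/TAZ siRNA against the PD-only control were Hnf4a (0.72), Grhl3 (0.68), Zeb1 (0.68), Elf3 (0.63) and Ehf (0.18). Grhl3, also grainyhead-like, was 0.63 higher with YAP/TAZ siRNA than in the 2i control.

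Genes of other cell types also differed between the arms, in ways that varied by list. They are given here as sums of unlogged values over each list of markers. The 10 fibroblast markers summed to 275.9 to 308.1 with YAP/TAZ siRNA, 240.4 to 288.8 in the 2i control and 1847 to 2021 in the PD-only control. Col1a2 made up 43.8% of the PD-only control sum and Col1a1 28.1%. Of the 10, 7 fell with YAP/TAZ siRNA and 8 in the 2i control. For 10 primitive endoderm markers the sums were 462.1 to 494.0 with YAP/TAZ siRNA, 513.7 to 573.4 in the 2i control and 2183 to 2415 in the PD-only control. Col4a1 alone made up 72.5% of the PD-only control sum and Dab2 11.7%. Of the 10, 5 fell and 1, Lama1, rose with YAP/TAZ siRNA and 6 fell and 1 rose in the 2i control. Trophoblast markers (10) summed to 1553 to 1845 with YAP/TAZ siRNA, 933.9 to 958.9 in the 2i control and 1997 to 2236 in the PD-only control. Tfap2c made up 62.2% of this sum with YAP/TAZ siRNA, 40.9% in the 2i control and 30.2% in the PD-only control. In this list 5 fell and 2 rose with YAP/TAZ siRNA and 6 fell and 1 rose in the 2i control. Cdx2 was among those that rose (by 1.07 with YAP/TAZ siRNA and 0.55 in the 2i control), and Tfap2c rose by 0.71 with YAP/TAZ siRNA and differed by -0.74 in the 2i control. The sums of these 3 lists, though not each of their genes, were thus highest in the PD-only control.

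The 6 endothelial markers had sums of 199.8 to 211.7 with YAP/TAZ siRNA, 285.7 to 302.0 in the 2i control and 400.2 to 419.5 in the PD-only control, with 2 that fell in each comparison and 1 that rose with YAP/TAZ siRNA. Surface ectoderm ran otherwise, its 7 markers summing to 418.9 to 446.7 with YAP/TAZ siRNA, 590.2 to 653.3 in the 2i control and 322.2 to 347.3 in the PD-only control, with 2 that rose in each. Most of that difference was in 1 gene, Tfap2a, whose unlogged mean was 136.0 with YAP/TAZ siRNA, 331.0 in the 2i control and 56.7 in the PD-only control. Krt5, Krt14, Krt15 and Krt1 were called in neither comparison. Defining genes of these types were dim in every arm, with arm means of 4.83 to 4.96 for Gata4, 3.70 to 3.77 for Sox7, 3.54 to 3.65 for Elf5, 4.12 to 4.28 for Trp63 and 3.13 to 3.23 for Lum. Others were not: Gata3 fell (-3.13 with YAP/TAZ siRNA and -2.48 in the 2i control), and so did Col1a1 (-3.95 with YAP/TAZ siRNA and -4.01 in the 2i control). Pluripotency markers (8) were high in all arms, summing to 63420 to 65500 with YAP/TAZ siRNA, 69400 to 72700 in the 2i control and 59110 to 60500 in the PD-only control. The part of the genes of other cell types in the differences of the junction genes was not tested, and in bulk samples fewer cells of a type and less RNA per cell cannot be told apart.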

How the data were processed

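Total RNA was labelled with biotin and hybridised to Affymetrix mouse arrays, 1 sample per array, per the labels' protocols. The deposited values are log2 expression per probe set made by the authors with RMA, per the submitters' processing notes; the version of RMA is not given in the sources used here, and the log2 scale was read from the tool and from the range of 2.09 to 14.91. RMA gives arrays the same distribution of probe intensities before it summarises them into probe sets. This hides any shift in the RNA content of cells, and RMA has no detection call.

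Of 45101 probe sets, 34945 had 1 gene symbol in the platform annotation, and each of 18193 genes was read on its probe set with the highest mean. A linear model with a mean for each of the 6 groups of siRNA and medium was fitted over all 22 arrays with limma 3.58.1 in R 4.3.3 (lmFit and eBayes, 16 residual and 3.1 prior degrees of freedom), and arms were compared as averages of their siRNA groups. It was tested on simulated data. The call was an adjusted p of 0.05 or less (Benjamini-Hochberg, over all genes).

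Values in every arm were given for members called with an absolute difference of 1 or more, differences for those with 0.5 or more, and names and ranges for the rest, and from each other list up to 4 called genes per comparison. A few further values were printed for genes outside this rule (Cldn3, Cldn9, Cldn12, Cldn19, Cldn22, Cldn23, Gja4, Gjb1, Gjb6, Jup, Tjp3, Pkp4 and defining markers), as were values in every arm for Cldn4, Tjp1 and F11r. Rises of Hnf4a, Grhl3, Zeb1, Elf3 and Ehf were also given outside this rule. The members and lists were chosen with earlier results of these data known. Promoters of 34 of the 44 genes were found in the RefSeq table (GRCm38.p6) by symbol and searched on both strands. Dim genes are those with every arm mean under 6.64, the median of all genes; 19 members were not dim, and all 44 were tested. Alternatives covered the choice of probe set, dim genes, weights of arrays, normalization, the prior variance, the arrays fitted, pooled siRNAs, each siRNA and each array alone or left out, the replicate block, a stricter call and the Actb measure as a covariate. Tables and figures used Python 3.11.15, pandas 2.3.3 and matplotlib 3.10.9.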

Additional observations from a re-analysis of the deposited data

Results flagged for a closer look

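Each group of 4 arrays was checked for an array far from the other 3, for the 13 genes with a 2-fold difference (52 checks, of which chance would mark about 1 in 20). For Cgn, the array of control siRNA 1 in 2i, replicate C, read 6.62, against 6.40 to 6.41 for the other arrays of that group. For Cldn5, the array of control siRNA 1 in 2i, replicate D, read 6.76, against 6.37 to 6.42. Both values were still outside the ranges of the YAP/TAZ siRNA arm and the PD-only control for these genes.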

How the results depend on the processing

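The 13 genes with a called difference of 1 or more and the 6 with 0.5 to 1 gave 2097 differences under 37 alternative settings. Of these, 2052 kept their side of the threshold, 25 were no longer called and 20 became called. Fits with 1 array left out, at times from an arm not compared, gave 1254 of them, and 1229 kept their side. The other 15 settings gave 843, and 823 kept their side. These genes were picked for large called differences in the main fit, so much of this agreement was likely beforehand. A change of sign was counted only where a gene was called in the main fit or the alternative, and 0 were found. The other 25 members, among them Gja3 and Gjb1, were left out of this tally. Most of the calls that moved were Cldn1, Cldn2, Gjc1 and Pkp3 between YAP/TAZ siRNA and the 2i control. Of 225 counts under the settings that kept all arrays of an arm or 1 siRNA, 221 stayed within 1.5 times. The number of the 44 genes that rose with YAP/TAZ siRNA against the PD-only control, 7, was 2 with dim genes left out (19 of the 44 tested), 4 with the siRNAs numbered 1 alone (fewer arrays) and 3 with the Actb covariate, and the number at least 2-fold higher with YAP/TAZ siRNA than in the 2i control, 1, was 0 with the mean of all probe sets. The cause was not tested for the covariate. With each array left out in turn, 7 to 8 rose and 22 to 24 fell with YAP/TAZ siRNA, 6 to 8 rose and 19 to 20 fell in the 2i control, and 8 to 9 rose and 9 to 11 fell between those arms; the calls over all genes were 10764 to 11381, 10121 to 10570 and 8511 to 8797. At least 2-fold, the same settings gave 2 and 8, 1 and 9, and 1 and 3 that rose and fell. Replicate letters shared between groups did not pair the arrays: 51 same-letter pairs correlated by -0.0771 to 0.124, with 2 over 0.1. With the replicate block, 7 rose and 22 fell with YAP/TAZ siRNA, 8 rose and 19 fell in the 2i control, and 9 rose and 9 fell between those arms (11261, 10542 and 8714 of all genes called). Signals near background limit the dim members.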
